A study of Mus musculus with 13 samples.

Results

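The genes described here are 33 members of the NF-kB inflammatory module: subunits of NF-kB, its inhibitors, receptors and adaptors that feed into it, cytokines, endothelial adhesion molecules and acute phase genes. They were taken by symbol from a fixed list, and all 33 are among the 19838 genes counted in each library. RNA came from the aorta and the gastrocnemius (calf) muscle of mice aged 88 weeks on a mixed FVBxC57BL/6 background, and was counted with an amplicon panel in which each targeted transcript is read at a short stretch. The 4 groups were aorta dNdK (2 libraries), aorta Rosa26 (4), muscle dNdK (3) and muscle Rosa26 (4). Mice called dNdK had the genotype GFP-FOXM1dNdKtg/+ Rosa26-rtTAtg/+, which adds FOXM1dNdK, a variant of the mitotic transcription factor FOXM1 fused to GFP, to rtTA, the transactivator that doxycycline controls. Mice called Rosa26 had the genotype GFP-FOXM1dNdK-/- Rosa26-rtTAtg/+, so both genotypes carried rtTA. The labels name no doxycycline treatment, sex or sequencing run, and by the animal numbers in the deposited names 4 animals (1 dNdK, 3 Rosa26) gave a library of each tissue.

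NF-kB is a family of dimeric transcription factors held in the cytoplasm by IkB proteins. Signals from Toll-like receptors, the interleukin-1 receptor or tumour necrosis factor lead to degradation of IkB, and the freed dimers switch on cytokines, adhesion molecules and, as negative feedback, IkB proteins and the ubiquitin-editing enzyme A20. In the vessel wall the adhesion molecules let leukocytes roll on and cross the endothelium, and in skeletal muscle the pathway is known for its activity in injury and wasting.

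The family is known to bind DNA at kappaB motifs, and the promoters of the members were searched for them. RefSeq windows of GRCm38.p6, 250 bases before to 50 bases after the annotated start, were given for 25 of the 33 members. The kappaB consensus was searched on both strands and was present in 10 of these 25 (40%), against 2581 of 27025 genes with a window (9.55%). The list was chosen as NF-kB genes, so these shares describe it and are no test, and a match is not a measured site. Cd40, Nfkbiz, Tlr4, Cebpd, Vcam1, Nos2, Relb and Nfkb1 had no window. The 5 windows below belong to members on which the results turn, with consensus matches in capitals and the strand of the gene read 5′ to 3′. They lie at chr12:111442411-111442710 on the plus strand (Tnfaip2), chr7:19822706-19823005 on the minus strand (Bcl3), chr17:45555450-45555749 on the plus strand (Nfkbie), chr19:46304487-46304786 on the plus strand (Nfkb2) and chr9:21015690-21015989 on the plus strand (Icam1).
Tnfaip2: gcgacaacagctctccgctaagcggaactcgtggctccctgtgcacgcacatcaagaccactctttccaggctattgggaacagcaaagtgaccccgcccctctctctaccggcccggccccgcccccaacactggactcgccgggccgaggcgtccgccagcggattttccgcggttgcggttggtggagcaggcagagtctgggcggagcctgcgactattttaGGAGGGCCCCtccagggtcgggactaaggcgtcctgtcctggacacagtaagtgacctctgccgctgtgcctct
Bcl3: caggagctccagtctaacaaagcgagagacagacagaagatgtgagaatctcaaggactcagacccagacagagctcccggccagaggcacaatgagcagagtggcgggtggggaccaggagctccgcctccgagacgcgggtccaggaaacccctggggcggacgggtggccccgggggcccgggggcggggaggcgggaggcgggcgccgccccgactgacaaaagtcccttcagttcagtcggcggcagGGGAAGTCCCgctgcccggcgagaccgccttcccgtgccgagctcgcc
Nfkbie: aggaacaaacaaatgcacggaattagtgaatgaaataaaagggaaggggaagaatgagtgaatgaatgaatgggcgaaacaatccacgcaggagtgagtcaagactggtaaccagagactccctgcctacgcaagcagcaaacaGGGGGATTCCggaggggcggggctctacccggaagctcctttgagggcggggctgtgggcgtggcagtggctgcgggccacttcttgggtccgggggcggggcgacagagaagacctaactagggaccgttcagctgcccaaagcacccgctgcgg
Nfkb2: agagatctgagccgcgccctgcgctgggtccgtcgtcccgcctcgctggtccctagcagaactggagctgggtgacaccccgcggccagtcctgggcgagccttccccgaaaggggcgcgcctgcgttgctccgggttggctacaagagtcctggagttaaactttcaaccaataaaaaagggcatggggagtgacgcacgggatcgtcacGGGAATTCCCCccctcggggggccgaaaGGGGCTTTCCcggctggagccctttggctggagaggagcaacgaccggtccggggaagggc
Icam1: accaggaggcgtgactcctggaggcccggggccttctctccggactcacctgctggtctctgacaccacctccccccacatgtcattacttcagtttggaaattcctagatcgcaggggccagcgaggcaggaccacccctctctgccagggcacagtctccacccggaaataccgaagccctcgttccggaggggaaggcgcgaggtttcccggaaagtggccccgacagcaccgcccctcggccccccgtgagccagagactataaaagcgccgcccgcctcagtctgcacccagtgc
The match in Tnfaip2 begins 24 bases before the start site and that in Nfkbie 106 bases before it. In Bcl3 the match falls 2 bases after the start site, and the first window of Nfkb2 holds overlapping matches from 39 bases before the start. The window of Icam1 holds none, which says only that these letters are not in it.

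Depth ran between 3919526 and 13683952 gene counts per library, at which 3 counts, taken as the floor of detection, stand for 0.219 to 0.765 CPM (counts scaled to library size). Levels below are TMM-scaled CPM, and because each gene is read through its own amplicon they are compared between libraries and not between genes. Foxm1 held 2 to 5 counts in dNdK aorta, 2 to 24 in Rosa26 aorta, 0 to 3 in dNdK muscle and 1 to 3 in Rosa26 muscle, and whether its mouse amplicon reads the transgene is not stated. The tissue labels were borne out in part. Myh4, a myosin of fast muscle fibres, was at most 1.93 CPM in aorta and 33300 to 59600 CPM in muscle. Smooth muscle genes were mixed: Myh11, the smooth muscle myosin, had like levels in both (51.6 to 83 CPM in aorta, 30.3 to 85.6 CPM in muscle). Cnn1, another of them, ran from 4.91 to 13 CPM in aorta and from 0.747 to 5.96 CPM in muscle. At an edgeR adjusted p of 0.05, 3 of 7 smooth muscle genes were higher in Rosa26 aorta than in Rosa26 muscle and 2 lower. Over all genes tested, 31.0% were higher and 27.5% lower. All 6 aorta libraries held Ucp1 of brown fat at 3760 to 6990 CPM, and 3 of them (Rosa26 1, Rosa26 2 and dNdK 2) also held cardiomyocyte markers summing to 738 to 1920 CPM, against 2.99 to 8.3 CPM in the other 3. Muscle dNdK 3 stood apart with white adipocyte markers at 12300 CPM, against 332 to 1010 CPM in the other 6 muscle libraries. It also held Ucp1 at 756 CPM, against at most 7.78 CPM in the other 6. Muscle dNdK 1 stood apart with B and plasma cell markers at 159 CPM, against 3.14 to 22.1 CPM. In bulk tissue, fewer cells of a type and less RNA per cell cannot be told apart.

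The first comparison asked where the module is expressed, by setting aorta against muscle within each genotype. In Rosa26 mice most members were higher in aorta: of 24 tested, 16 were higher, 1 was lower and 7 did not pass the edgeR quasi-likelihood test at an adjusted p of 0.05. Over all 11058 genes tested, 31.0% were called higher and 27.5% lower. Cd40, Lcn2 and Saa3, among the 16, held fewer than 10 counts in every Rosa26 muscle library. They entered the test only through aorta libraries, so a call in the other direction was hardly possible for them. The median log2 fold change of the tested members was 0.95, against 0.08 over all genes tested. Groups did not overlap for 14 of the members called higher and for the 1 called lower, while 26.9% of all genes had aorta wholly above muscle and 25.9% wholly below. Endothelial markers summed to 836 to 2070 CPM in Rosa26 aorta and to 354 to 473 CPM in Rosa26 muscle, and macrophage markers to 288 to 590 CPM in Rosa26 aorta and to 89.7 to 211 CPM in Rosa26 muscle. The part of cell make-up in these differences was not tested.

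IkB proteins and feedback genes gave 4 of 5 tested members higher in Rosa26 aorta. Bcl3, an atypical IkB protein that works in the nucleus with p50 and p52 dimers, stood at 20.2, 23.8, 15.55 and 16.7 CPM in the Rosa26 aorta libraries and 3.36, 2.33, 4.31 and 2.64 CPM in the Rosa26 muscle libraries. Every aorta library lay above every muscle library (log2 fold change 2.59, SE 0.28, edgeR adjusted p = 2.87e-05). Nfkbiz, the inducible nuclear IkB protein IkB-zeta, stood at 20.6, 19.9, 22.9 and 16.4 CPM in Rosa26 aorta and 3.175, 5.22, 1.86 and 4.40 CPM in Rosa26 muscle, again without overlap (log2 fold change 2.45, SE 0.32, edgeR adjusted p = 9.76e-05). Nfkbie encodes IkB-epsilon, a cytoplasmic inhibitor. It stood at 5.38, 14.4, 7.25 and 5.34 CPM in Rosa26 aorta, with Rosa26 2 the highest, and at 3.175, 2.67, 3.135 and 1.635 CPM in Rosa26 muscle (log2 fold change 1.62, SE 0.41, edgeR adjusted p = 0.00613). Nfkbia, the classical feedback inhibitor IkB-alpha, averaged 68.00 ± 18.6 CPM in Rosa26 aorta and 43.4 ± 6.07 CPM in Rosa26 muscle (SD, n = 4 each), with overlap (log2 fold change 0.65, SE 0.22, edgeR adjusted p = 0.0271). Tnfaip3, the A20 enzyme that ends the signal, had overlapping groups and did not pass (log2 fold change 0.58, SE 0.39, edgeR adjusted p = 0.218). Socs3, the feedback inhibitor of interleukin-6 signalling, did not pass the filter on low counts.

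Receptors and adaptors also gave 4 of 6 tested members higher in Rosa26 aorta. Myd88, the adaptor shared by most Toll-like receptors and the interleukin-1 receptor, stood at 15.9, 19.05, 25.3 and 21.6 CPM in Rosa26 aorta and 4.30, 6.44, 5.19 and 5.66 CPM in Rosa26 muscle. The lowest aorta library was well above the highest muscle library (log2 fold change 1.92, SE 0.24, edgeR adjusted p = 8.42e-05). Cd40, the receptor through which T cells activate B cells and macrophages, stood at 2.06, 6.095, 2.79 and 2.78 CPM in Rosa26 aorta and 0.56, 0.555, 0.784 and 0.629 CPM in Rosa26 muscle (log2 fold change 2.42, SE 0.47, edgeR adjusted p = 0.0013). The highest Cd40 library, aorta Rosa26 2, was also the one with the most B and plasma cell marker RNA, at 380 CPM against 11.5 to 164 CPM in the other Rosa26 aorta libraries. Il1r1, the signalling receptor for interleukin-1, stood at 8.18, 12.2, 17.01 and 10.04 CPM in Rosa26 aorta and 4.86, 4.22, 7.84 and 5.41 CPM in Rosa26 muscle, a narrow gap with no overlap (log2 fold change 1.08, SE 0.32, edgeR adjusted p = 0.0136). Birc3, a ubiquitin ligase of the TNF receptor complex, averaged 13.9 ± 4.22 CPM in Rosa26 aorta and 7.78 ± 1.04 CPM in Rosa26 muscle (SD, n = 4 each; log2 fold change 0.85, SE 0.27, edgeR adjusted p = 0.0195). Tlr2 and Tlr4, receptors for bacterial lipopeptides and lipopolysaccharide, had log2 fold changes of 0.86 and 0.75 with overlapping groups and did not pass. Of the subunits, Rela (p65), Nfkb2 (p100/p52) and Relb had overlapping groups and log2 fold changes of 0.49, 0.08 and 0.09, none past the threshold.

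The 3 adhesion molecules that passed the filter on low counts were all called higher in Rosa26 aorta. Vcam1, the endothelial ligand of integrin VLA-4, stood at 15.1, 42.2, 38.3 and 18.6 CPM in Rosa26 aorta and 4.86, 6.89, 6.07 and 5.41 CPM in Rosa26 muscle (log2 fold change 2.30, SE 0.36, edgeR adjusted p = 0.000357). Icam1, the ligand of the leukocyte integrins LFA-1 and Mac-1, stood at 9.28, 20.5, 17.7 and 13.45 CPM in Rosa26 aorta and 4.48, 6.11, 6.27 and 5.28 CPM in Rosa26 muscle (log2 fold change 1.46, SE 0.29, edgeR adjusted p = 0.00169). Neither gene's groups overlapped. Selp, the P-selectin that endothelial cells and platelets store and release for leukocyte rolling, averaged 5.57 ± 1.75 CPM in Rosa26 aorta and 2.56 ± 1.33 CPM in Rosa26 muscle (SD, n = 4 each; log2 fold change 1.10, SE 0.41, edgeR adjusted p = 0.0389), and muscle Rosa26 4 reached into the aorta range.

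Among effectors and acute phase genes 4 members were higher in Rosa26 aorta and 1 was lower. The lower one was Tnfaip2, a TNF-induced gene of endothelium and myeloid cells, and it had the smallest p of all members. It stood at 14.95, 15.2, 14.5 and 9.40 CPM in Rosa26 aorta and 167, 167, 175 and 339.8 CPM in Rosa26 muscle, 15.5-fold lower in aorta (log2 fold change -3.96, SE 0.31, edgeR adjusted p = 3.06e-06). Saa3, an acute phase serum amyloid A made outside the liver by macrophages and adipocytes, stood at 5.30, 3.35, 11.1 and 0.854 CPM in Rosa26 aorta and 0.187, 0.777, 0 and 0 CPM in Rosa26 muscle. Every aorta library was above every muscle library, but the muscle libraries held at most 7 counts and the aorta libraries spread 13-fold (log2 fold change 4.37, SE 1.01, edgeR adjusted p = 0.00372). The lowest aorta library, Rosa26 4, held 4 counts, fewer than the 7 of muscle Rosa26 2, and lay above it only after scaling. Saa3 has close copies in the genome, and how reads were split among them is not given in the sources used here. Lcn2, the iron-scavenging lipocalin of neutrophils and inflamed tissue, stood at 1.77, 1.37, 3.35 and 7.05 CPM in Rosa26 aorta and 0.747, 0.333, 0.784 and 1.13 CPM in Rosa26 muscle (log2 fold change 2.09, SE 0.61, edgeR adjusted p = 0.0135). The highest Lcn2 library, aorta Rosa26 4, also had the highest neutrophil marker sum, 42.7 CPM against at most 12.8 CPM in the other 3, and the part of neutrophils was not tested. Cebpb, a transcription factor of the acute phase response and of fat cell formation, stood at 359.7, 380.3, 292 and 298 CPM in Rosa26 aorta and 249.7, 129, 198 and 152 CPM in Rosa26 muscle (log2 fold change 0.87, SE 0.23, edgeR adjusted p = 0.00839). Nos2, the inducible nitric oxide synthase, averaged 6.10 ± 2.16 CPM in Rosa26 aorta and 2.94 ± 0.565 CPM in Rosa26 muscle (SD, n = 4 each; log2 fold change 1.03, SE 0.34, edgeR adjusted p = 0.0245). The only cytokine past the filter was Csf1, the growth factor of macrophages, at 48.9 ± 14.7 CPM in Rosa26 aorta and 29.6 ± 3.40 CPM in Rosa26 muscle (SD, n = 4 each; log2 fold change 0.73, SE 0.23, edgeR adjusted p = 0.0196). Cebpd, the partner of Cebpb in the acute phase, had a log2 fold change of -0.50 with overlapping groups and did not pass.

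The calls of 5 members in Rosa26 mice hung on single libraries. Leaving out 1 aorta Rosa26 library, the adjusted p by edgeR was 0.0637 for Birc3, 0.0617 for Nfkbia and 0.0504 for Selp without aorta Rosa26 2. It was 0.0563 for Csf1, 0.0532 for Nos2 and 0.0761 for Selp without aorta Rosa26 3, and 0.0716 for Nos2, 0.0889 for Nfkbia and 0.101 for Selp without aorta Rosa26 4. Leaving out muscle Rosa26 1 gave 0.0602 for Nos2 and 0.0971 for Selp, and leaving out muscle Rosa26 2 gave 0.0583 for Birc3, 0.0761 for both Nos2 and Nfkbia and 0.102 for Selp. Without muscle Rosa26 3 it was 0.0623 for Csf1, 0.082 for Nfkbia and 0.113 for Selp, and without muscle Rosa26 4 it was 0.053 for Birc3 and 0.0589 for Nfkbia. The other 12 members called, from Tnfaip2 to Lcn2 and Saa3, stayed past the threshold in each of these 8 fits. Other settings ended calls too. Without both aorta Rosa26 1 and 2, which held heart RNA, the adjusted p by edgeR was 0.0604 for Cebpb and 0.253 for Birc3. On counts of the second strand alone it was 0.0508 for Nfkbie, 0.0892 for Nos2 and 0.161 for Nfkbia, and on those of the first strand alone it was 0.133 for Selp. Lcn2 and Saa3 did not pass the filter on low counts on either single strand. For Selp the adjusted p by edgeR was also 0.06 without a filter on low counts and 0.0607 with all 13 libraries in 1 fit. With the animal as a block, for the 3 Rosa26 animals that gave both tissues, 14 members passed: the adjusted p by edgeR was 0.0988 for Il1r1, 0.116 for Birc3, 0.0901 for Nos2 and 0.0717 for Nfkbia, and Tlr4 was added. Scaling to library size alone, without TMM factors, moved the median log2 fold change of all genes by 0.88 and the share of calls that were higher in aorta to 82.8%, against 53% with TMM. Under it 22 members passed, with Tlr2, Tlr4, Tnfaip3, Rela and Nfkb2 added and the same directions for the 17.

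**Figure D1:**
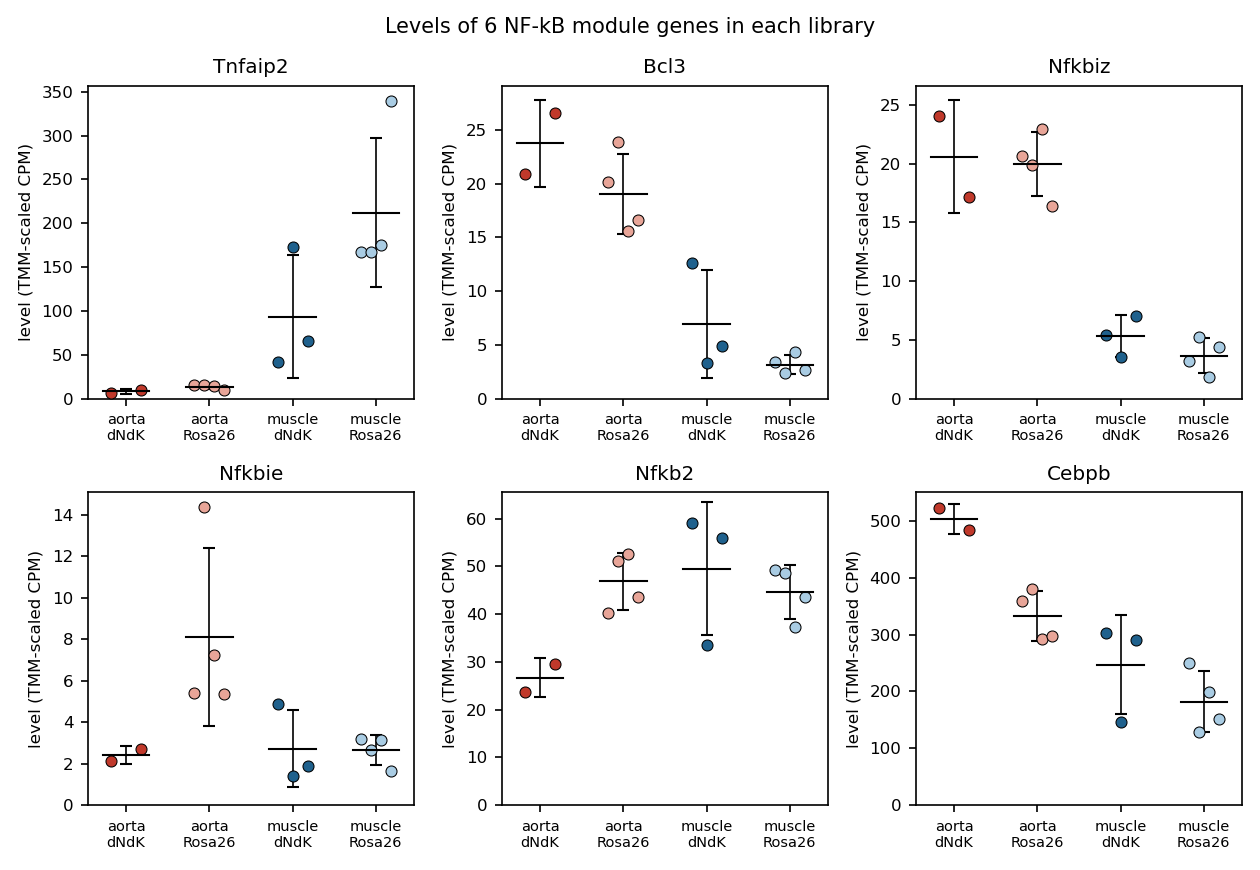
TMM-scaled CPM (y axis, from 0) of Tnfaip2, Bcl3, Nfkbiz, Nfkbie, Nfkb2 and Cebpb in each library of the 4 groups (x axis). Points are libraries, horizontal lines are group means and bars are SD. Tnfaip2 lies between 167 and 339.8 CPM in the 4 Rosa26 muscle libraries and at most 15.2 CPM in every aorta library, while Bcl3 and Nfkbiz lie higher in aorta than in muscle.

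In dNdK mice the same tissue contrast called 2 of 24 tested members, 1 higher and 1 lower, and over all 11426 genes tested 5.22% were called higher and 10.5% lower. Nfkbiz stood at 24.03 and 17.2 CPM in dNdK aorta and 5.445, 3.505 and 7.02 CPM in dNdK muscle (log2 fold change 1.95, SE 0.39, edgeR adjusted p = 0.025). Tnfaip2 stood at 6.17 and 10.25 CPM in dNdK aorta and 42.2, 173 and 65.3 CPM in dNdK muscle (log2 fold change -3.50, SE 0.72, edgeR adjusted p = 0.0273). Both members had groups that did not overlap and the same direction as in Rosa26 mice. Neither call held when an aorta dNdK library was left out: the adjusted p by edgeR without dNdK 1 was 0.2 for Nfkbiz and 0.184 for Tnfaip2, and without dNdK 2 it was 0.109 for Nfkbiz and 0.135 for Tnfaip2. Without muscle dNdK 2 it was 0.0609 for Nfkbiz, and on second strand counts alone it was 0.0786. DESeq2 called 5 members, adding Cebpb, Csf1 and Bcl3 on the higher side.

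The remaining members of the dNdK contrast had a wide spread of estimates, and the median over the 24 tested members was -0.04 on the log2 scale. This median changed sign with the setting, between -0.26 without aorta dNdK 1 and 0.53 with scaling to library size alone, and it was 0.26 without muscle dNdK 1. Estimates were above 0 for 10 of the 24, against 49.6% of all genes tested. Without muscle dNdK 1 that number was 17 and Bcl3 was called higher too, and with scaling to library size alone, which moved the median of all genes by 0.58 and the share of calls that were higher to 68.4% against 33.1%, it was 18. In 8 members aorta lay wholly above muscle and in 3 wholly below, while 28.5% and 29.4% of all genes did so. The 3 adhesion molecules, all called higher in Rosa26 aorta, had log2 fold changes of -0.32 (Icam1), -0.05 (Vcam1) and -0.70 (Selp) in dNdK mice, with overlapping groups. Bcl3, Cebpb, Csf1 and Myd88 had estimates of 1.81, 1.03, 0.84 and 0.83, with dNdK aorta wholly above dNdK muscle, and did not pass. Nfkb2 and Relb lay wholly below muscle in dNdK aorta, with log2 fold changes of -0.89 and -1.20 that did not pass. The dNdK contrast had 5 libraries and the Rosa26 contrast 8, so the numbers of calls are not set against each other. The test of the difference between the tissues, given further on, bears on this directly.

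**Figure D2:**
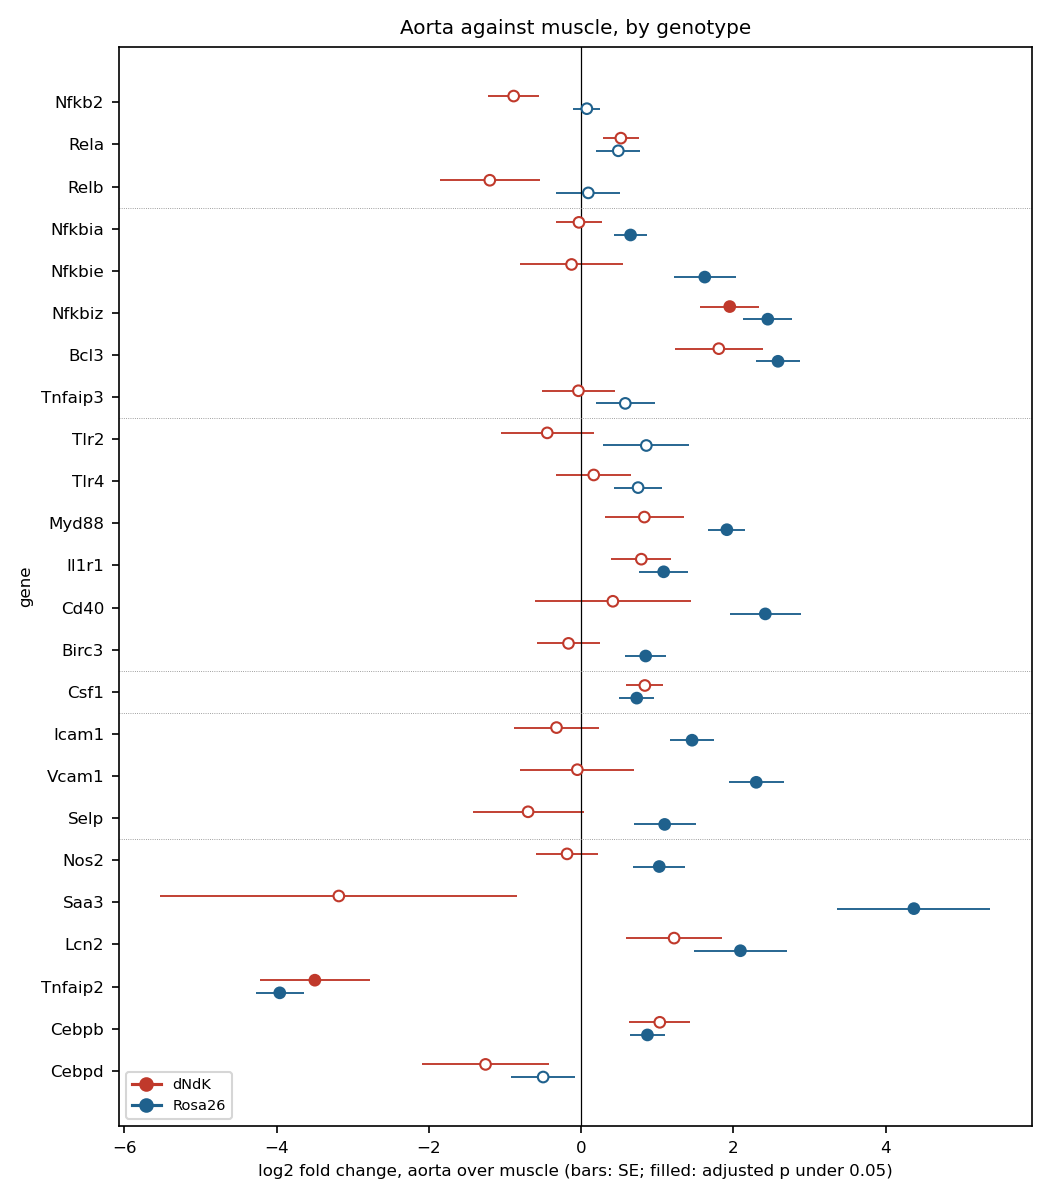
Log2 fold change of aorta over muscle (x axis) for each tested member (y axis, grouped by role) in dNdK mice and in Rosa26 mice. Bars are SE and filled points passed an adjusted p of 0.05. In Rosa26 mice 16 points are filled to the right of 0 and 1, Tnfaip2, to the left, and in dNdK mice Nfkbiz and Tnfaip2 are filled.

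The second comparison set dNdK against Rosa26 in aorta. No member passed the threshold among 27 tested, with a smallest adjusted p of 0.757 by edgeR, and 0.00839% of the 11920 genes tested were called in either direction. By DESeq2 no member passed either. At an unadjusted p under 0.05, 7 members had estimates below 0 and 1 above, while 3.65% of all genes had such a p with an estimate below 0 and 2.33% with one above. Estimates were below 0 for 22 of the 27 members, against 54.2% of all genes, with a median of -0.73 against -0.05. Sele, Il1b, Tnf and Relb, all with estimates below 0, held fewer than 10 counts in each dNdK library. They entered the test only through Rosa26 libraries, so an estimate below 0 was their likely outcome. Sele and Il1b are also among the 7. In 10 members both dNdK libraries lay below all 4 Rosa26 libraries and in 2 above, against 8.24% and 9.19% of all genes. The 10 include Il1b, which held 1 count in each dNdK library and in Rosa26 4, so its separation came only from scaling to depth. Relb and Sele, with fewer than 10 counts in each dNdK library, are also among the 10. The unadjusted p-values that follow are descriptions of single genes, none of which passed the adjustment over all genes.

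All 4 adhesion molecules had estimates below 0. Selp stood at 1.20 and 1.885 CPM in the dNdK aorta libraries and 3.90, 4.61, 5.86 and 7.90 CPM in the Rosa26 aorta libraries, without overlap (log2 fold change -1.83, SE 0.48, unadjusted p = 0.00469 by edgeR). Sele, the E-selectin made by activated endothelium, held 1 and 0 counts in dNdK aorta and 5, 10, 36 and 6 counts in Rosa26 aorta. Scaled to depth and pooled over the group, Sele in dNdK aorta was 0.0327 of that in Rosa26 aorta, with an exact 95% counting interval of 0.000814 to 0.19 that leaves out the spread between animals (log2 fold change -4.49, SE 1.43, unadjusted p = 0.0132 by edgeR). Of the 57 Rosa26 counts of Sele, 36 came from Rosa26 3. Icam1 stood at 7.83 and 9.05 CPM in dNdK aorta and 9.28, 20.5, 17.7 and 13.45 CPM in Rosa26 aorta, where the lowest Rosa26 library, at 9.28 CPM, was just above the higher dNdK library (log2 fold change -0.86, SE 0.37, unadjusted p = 0.0474 by edgeR). Vcam1 had overlapping groups, at 16.9 and 11.2 CPM in dNdK aorta and 15.1, 42.2, 38.3 and 18.6 CPM in Rosa26 aorta (log2 fold change -1.03, SE 0.48, unadjusted p = 0.064 by edgeR). Endothelial markers summed to 926 and 987 CPM in the dNdK aorta libraries, within the range of 836 to 2070 CPM of the Rosa26 ones, whose highest values (2070 and 1760 CPM) came from Rosa26 3 and 4. These 2 libraries also had the highest Selp and Sele, and the part of endothelial RNA was not tested.

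**Figure D3:**
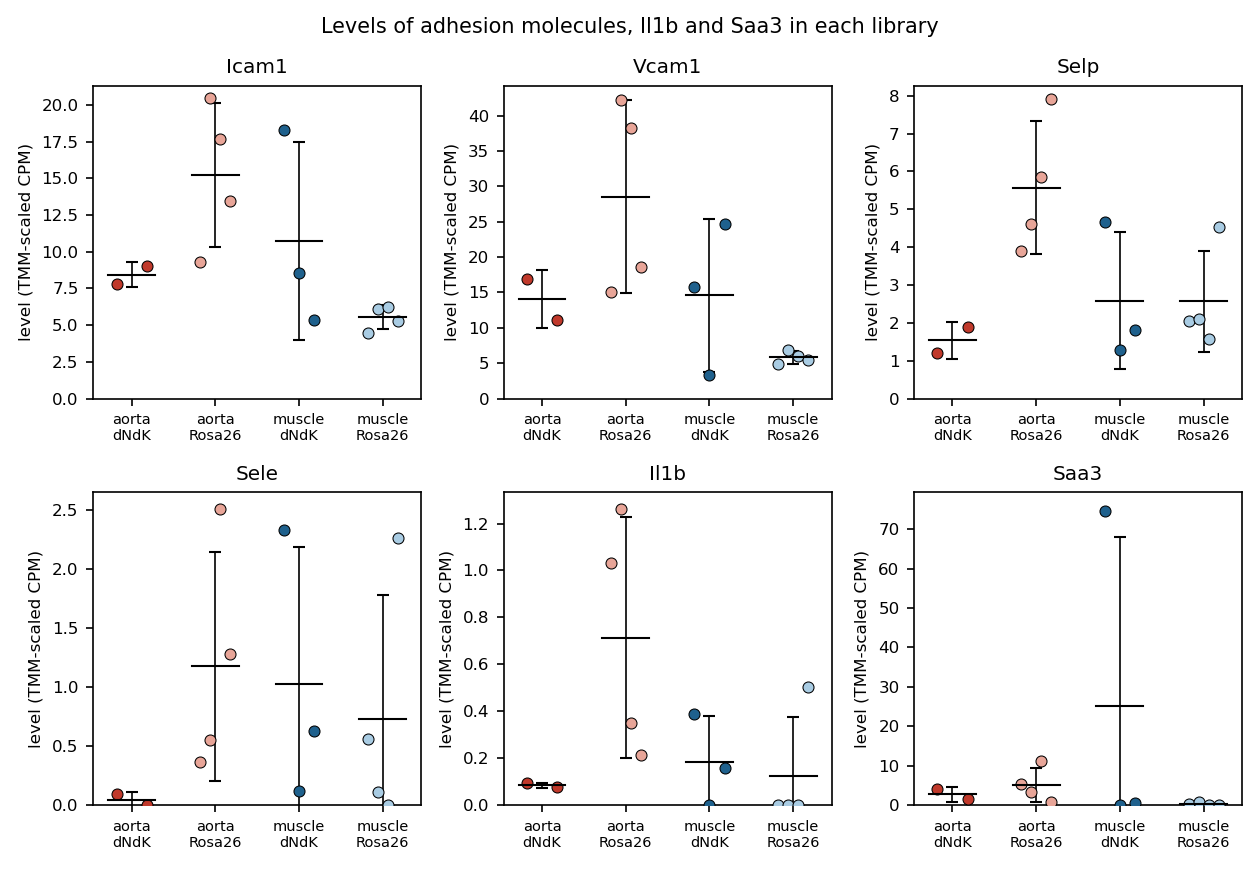
TMM-scaled CPM (y axis, from 0) of Icam1, Vcam1, Selp, Sele, Il1b and Saa3 in each library of the 4 groups (x axis). Points are libraries, horizontal lines are group means and bars are SD. Selp lies lower in both dNdK aorta libraries than in any Rosa26 aorta library (3.90 to 7.90 CPM), and 1 muscle dNdK library stands at 74.7 CPM for Saa3.

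Of 3 tested subunits all had estimates below 0, and of 5 tested IkB and feedback genes 3 did. Nfkb2, whose p100 product is processed to p52 in the non-canonical pathway, stood at 23.75 and 29.55 CPM in dNdK aorta and 40.2, 51.1, 52.6 and 43.6 CPM in Rosa26 aorta, without overlap (log2 fold change -0.82, SE 0.25, unadjusted p = 0.00992 by edgeR). Nfkbie stood at 2.12 and 2.71 CPM in dNdK aorta and 5.38, 14.4, 7.25 and 5.34 CPM in Rosa26 aorta, also without overlap (log2 fold change -1.76, SE 0.53, unadjusted p = 0.0102 by edgeR). Relb and Tnfaip3 had groups that did not overlap as well, with log2 fold changes of -0.93 and -1.06. Rela, Nfkbia and Nfkbiz overlapped between genotypes, with log2 fold changes of -0.12 (SE 0.38), -0.59 (SE 0.33) and 0.04 (SE 0.26). Bcl3 had an estimate above 0, 0.31 (SE 0.27), with overlap.

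Interleukin-1 beta, the cytokine released by inflammasome-activated myeloid cells, was scarce. Il1b held 1 and 1 counts in the dNdK aorta libraries and 14, 23, 5 and 1 counts in the Rosa26 ones. Its pooled ratio of dNdK over Rosa26 was 0.0867, with a counting interval of 0.0102 to 0.333 (log2 fold change -3.05, SE 1.14, unadjusted p = 0.0271 by edgeR). Most of its 43 Rosa26 counts came from Rosa26 1 and 2, the libraries with the highest macrophage (590 and 550 CPM) marker sums. Macrophage markers summed to 284 and 228 CPM in dNdK aorta and to 288 to 590 CPM in Rosa26 aorta, groups that only just failed to overlap. Much of each sum was Lyz2, at 180 and 147 CPM in dNdK aorta and 413, 369, 298 and 187 CPM in Rosa26 aorta. Of 10 macrophage genes tested, 6 lay wholly lower in dNdK aorta, beside 8.24% of all genes, and the rest overlapped. Of the 12 macrophage genes, C1qa and Ly6c2 held 3 counts or fewer in every library, and the part of macrophages in the values of the module was not tested. Cd40, which B cells and macrophages carry, stood at 1.66 and 0.678 CPM in dNdK aorta and 2.06, 6.095, 2.79 and 2.78 CPM in Rosa26 aorta (log2 fold change -1.57, SE 0.67, unadjusted p = 0.045 by edgeR). Without the 3 aorta libraries with heart RNA its log2 fold change was -0.71, without dNdK 1 it was -2.36 and without dNdK 2 it was -1.04.

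Effectors split. Cebpb stood at 523 and 485 CPM in dNdK aorta and 359.7, 380.3, 292 and 298 CPM in Rosa26 aorta, the 1 member with an estimate above 0 and an unadjusted p under 0.05 (log2 fold change 0.60, SE 0.22, unadjusted p = 0.0283 by edgeR). Both dNdK libraries were above all Rosa26 libraries, as they were for Cebpd at 1.29 and 1.58 CPM in dNdK aorta and 0.663, 1.21, 0.976 and 0.854 CPM in Rosa26 aorta (log2 fold change 0.61, SE 0.57, unadjusted p = 0.312 by edgeR). White adipocyte markers summed to 16000 and 12600 CPM in dNdK aorta and to 10000 to 14300 CPM in Rosa26 aorta. Most of each sum was Fabp4, at 14170 and 11350 CPM in dNdK aorta and 8763 to 12040 CPM in Rosa26 aorta. Nos2, Saa3, Lcn2 and Tnfaip2 overlapped between genotypes and had log2 fold changes of -0.59, -0.94, -0.29 and -0.73. Among receptors and adaptors beside Cd40, Birc3 lay wholly lower in dNdK aorta (-0.66), and Tlr2, Myd88, Tlr4 and Il1r1 overlapped, at -0.76, -0.29, -0.13 and 0.02. Csf1 and Tnf overlapped, at -0.15 and -1.83. None of these passed.

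The third comparison set dNdK against Rosa26 in muscle. No member passed among 20 tested, with a smallest adjusted p of 0.656 by edgeR, and 0% of the 10491 genes tested were called. DESeq2 called no member. At an unadjusted p under 0.05, 3 members had estimates above 0 and 1 below, while 5.43% of all genes had such a p with an estimate above 0 and 2.12% with one below. Estimates were above 0 for 15 of the 20 members, against 53.1% of all genes, with a median of 0.43 against 0.03. Only Nos2 had groups that did not overlap, at 4.86, 4.32 and 4.57 CPM in dNdK muscle and 2.80, 2.22, 3.23 and 3.52 CPM in Rosa26 muscle (log2 fold change 0.66, SE 0.34, unadjusted p = 0.0832 by edgeR), while 2.75% of all genes lay wholly higher in dNdK muscle.

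The 5 members with the smallest p in muscle all had overlapping groups and a wide spread among the 3 dNdK libraries. Vcam1 stood at 15.75, 3.27 and 24.7 CPM in dNdK muscle and 4.86, 6.89, 6.07 and 5.41 CPM in Rosa26 muscle, where dNdK 2 was below all Rosa26 libraries and the other 2 were far above them (log2 fold change 1.35, SE 0.54, unadjusted p = 0.034 by edgeR). Without dNdK 3, the library with fat markers, its log2 fold change was 0.70. Icam1 stood at 18.3, 8.53 and 5.36 CPM in dNdK muscle and 4.48, 6.11, 6.27 and 5.28 CPM in Rosa26 muscle (log2 fold change 0.95, SE 0.42, unadjusted p = 0.0471 by edgeR). Bcl3 stood at 12.6, 3.27 and 4.89 CPM in dNdK muscle and 3.36, 2.33, 4.31 and 2.64 CPM in Rosa26 muscle (log2 fold change 1.13, SE 0.50, unadjusted p = 0.0483 by edgeR). Cebpd stood at 6.42, 0.935 and 3.23 CPM in dNdK muscle and 1.68, 0.889, 1.08 and 1.76 CPM in Rosa26 muscle (log2 fold change 1.39, SE 0.62, unadjusted p = 0.0518 by edgeR). For these 3 genes dNdK 1, the library with B and plasma cell markers, was the highest of all 7 muscle libraries, and without it their log2 fold changes were 0.32 (Icam1), 0.38 (Bcl3) and 0.67 (Cebpd). That library was also the highest of the 7 for endothelial markers, at 648 CPM against 354 to 513 CPM, and for macrophage markers, at 283 CPM against 89.7 to 211 CPM. The part of these cell types was not tested. Tnfaip2 went the other way, at 42.2, 173 and 65.3 CPM in dNdK muscle and 167, 167, 175 and 339.8 CPM in Rosa26 muscle, with dNdK 2 inside the Rosa26 range (log2 fold change -1.17, SE 0.48, unadjusted p = 0.036 by edgeR). Its log2 fold change was -0.83 without dNdK 1 and -1.95 without dNdK 2.

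Saa3 was not tested in muscle alone, since too few muscle libraries held enough counts of it. In dNdK 1 it held 384 counts, or 74.7 CPM, while the other 6 muscle libraries held 0 to 8 counts. Its Lcn2 level, 1.56 CPM, was within reach of that of dNdK 2 (1.40 CPM), so Lcn2 did not stand out there. Myd88 stood at 14.97, 4.205 and 9.38 CPM in dNdK muscle and 4.30, 6.44, 5.19 and 5.66 CPM in Rosa26 muscle, with dNdK 1 again the highest (log2 fold change 0.83, SE 0.42, unadjusted p = 0.0783 by edgeR). The remaining members had log2 fold changes between -0.42 (Tnfaip3) and 0.56 (Nfkbiz). Nfkb2, Nfkbie, Selp and Rela, of which the first 3 had some of the smallest p-values in aorta, had log2 fold changes of 0.17 (SE 0.25), 0.02 (SE 0.53), -0.004 (SE 0.55) and -0.12 (SE 0.20) in muscle.

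**Figure D4:**
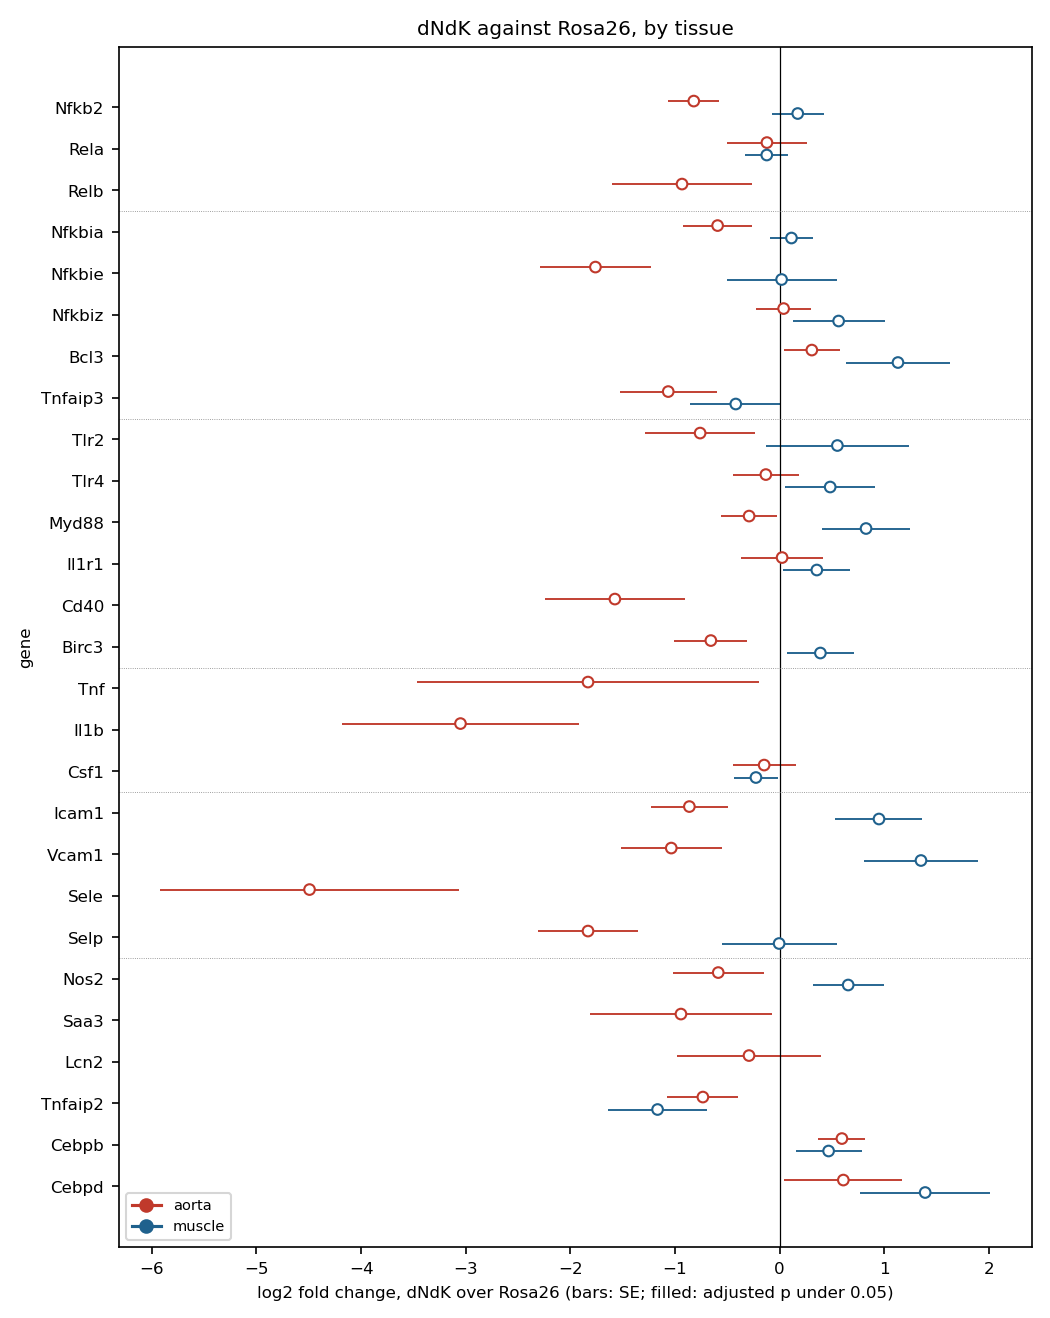
Log2 fold change of dNdK over Rosa26 (x axis) for each tested member (y axis, grouped by role) in aorta and in muscle. Bars are SE, and no point is filled because none passed an adjusted p of 0.05. Most aorta points lie left of 0 (22 of 27) and most muscle points right of it (15 of 20).

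The fourth comparison asked whether the genotype difference itself differed between the tissues, in 1 fit over all 13 libraries, taken as independent. No member passed among 27 tested, with a smallest adjusted p of 0.583 by edgeR, and 0% of the 12318 genes tested were called. DESeq2 called no member. At an unadjusted p under 0.05, 8 members had estimates below 0 (more negative in aorta) and none had one above, against 6.56% and 1.92% of all genes. Estimates were below 0 for 23 of the 27 members, against 56.2% of all genes, with a median of -1.01 against -0.10. Tnf and Il1b, among the 27, reached 10 counts only in Rosa26 aorta libraries. Of the 20 members tested in both tissues, 10 (50%) had an estimate below 0 in aorta and above 0 in muscle, against 29.9% of 10254 genes, and 0 had the reverse, against 22.6%.

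Icam1 and Vcam1 had the smallest unadjusted p-values of this test. For Icam1, the log2 fold change of dNdK over Rosa26 was -0.86 in aorta and 0.95 in muscle, and the difference was -1.78 (SE 0.59) with an unadjusted p of 0.0101 by edgeR. Without muscle dNdK 1 the difference was -1.17. For Vcam1 the genotype log2 fold changes were -1.03 in aorta and 1.35 in muscle, and the difference was -2.35 (SE 0.82) with an unadjusted p of 0.0129 by edgeR. For Nfkb2 they were -0.82 in aorta and 0.17 in muscle, with a difference of -0.96 (SE 0.34) and an unadjusted p of 0.0132 by edgeR. Saa3 had a difference of -7.54 (SE 2.65), with an unadjusted p of 0.0138 by edgeR, which was -1.42 without muscle dNdK 1, the library with 384 Saa3 counts. For Nos2 the genotype log2 fold changes were -0.59 in aorta and 0.66 in muscle, and the difference was -1.22 (SE 0.51), with an unadjusted p of 0.0324 by edgeR. Nfkbie, Selp and Birc3 completed the 8, with differences of -1.74, -1.80 and -1.01. Without muscle dNdK 1 the difference was -1.08 for Nfkbie and -1.11 for Selp. The 4 members with estimates above 0 were Tnfaip2, Cebpb, Csf1 and Rela, at 0.45, 0.16, 0.10 and 0.02.

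**Figure D5:**
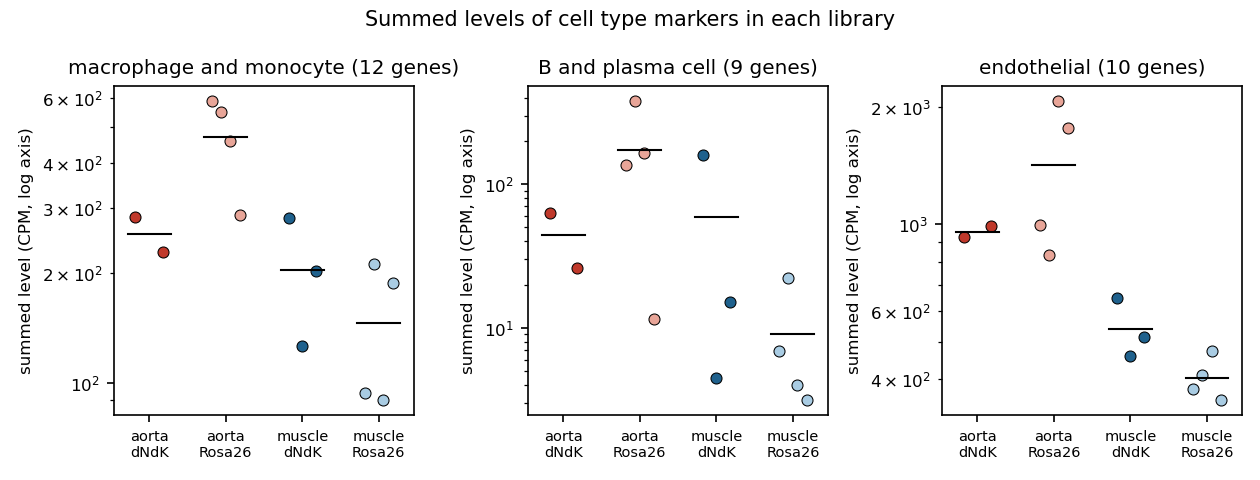
Summed TMM-scaled CPM (y axis, log scale) of macrophage and monocyte, B and plasma cell, and endothelial markers in each library of the 4 groups (x axis). Points are libraries and horizontal lines are group means. Macrophage markers sum to 228 and 284 CPM in dNdK aorta and to 288 to 590 CPM in Rosa26 aorta, and B and plasma cell markers reach 159 CPM in 1 muscle dNdK library.

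Of the 33 members, 6 did not pass the filter on low counts in any comparison. Tnf, Il1b and Sele passed it only in the aorta genotype comparison and in the test of the difference between tissues. In the aorta genotype comparison they did so through Rosa26 libraries alone. Nfkb1, which encodes the p105 precursor of p50, held 7 counts in all over the 13 libraries and at most 4 in 1 library. Il6, the cytokine that drives the acute phase response of liver, held 1 and 0 counts in dNdK aorta, 0, 4, 1 and 2 in Rosa26 aorta, 1, 0 and 0 in dNdK muscle and 1, 1, 0 and 3 in Rosa26 muscle. These levels are at the floor in nearly every library, so differences of Nfkb1 and Il6 were not detectable with these counts. Low counts can come from the tissue, the depth or the amplicon, and which of these holds was not tested. Il1a, the alarmin form of interleukin-1, held 1 and 1 counts in dNdK aorta, 1, 13, 2 and 0 in Rosa26 aorta, 1, 0 and 7 in dNdK muscle and 0, 1, 0 and 0 in Rosa26 muscle. Il1rn, the natural antagonist of the interleukin-1 receptor, held 2 and 4 counts in dNdK aorta, 7, 20, 7 and 2 in Rosa26 aorta, 1, 0 and 0 in dNdK muscle and 1, 1, 4 and 5 in Rosa26 muscle. Traf1, an adaptor of TNF receptors in lymphocytes, held 0 and 4 counts in dNdK aorta and 9, 52, 6 and 1 in Rosa26 aorta. Without the filter Traf1 was called higher in Rosa26 aorta than in Rosa26 muscle. The highest library of Il1a, Il1rn and Traf1 was in each case aorta Rosa26 2, which also had the highest B and plasma cell and T cell marker sums (380 and 99.2 CPM). Socs3 held at most 8 counts in any library. Tnf, the founding cytokine of the family, held 3 and 1 counts in dNdK aorta and 10, 28, 0 and 0 in Rosa26 aorta, so none of its Rosa26 counts came from Rosa26 3 and 4.

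A further 36 genes of NF-kB signalling, from receptors to kinases and ubiquitin enzymes, were set beside the module. In Rosa26 mice 12 of 32 tested were higher in aorta and 5 lower, beside 31.0% and 27.5% of all genes, with a median log2 fold change of 0.44 against 0.08. They included Ripk1 and Tnfrsf1a, the kinase and receptor of TNF signalling, at 2.02 and 1.81, Irak4, the kinase below Myd88, at 2.13, and, lower in aorta, Tab2, an adaptor of the kinase TAK1, at -2.17. In dNdK mice 2 of 34 were higher in aorta (Irak2 1.48 and Rbck1 1.08) and 1 lower (Tab2 -1.80), beside 5.22% and 10.5% of all genes. Between genotypes none passed in aorta (34 tested, 27 with estimates below 0 beside 54.2% of all genes, median -0.23) or in muscle (31 tested, 18 above 0 beside 53.1% of all genes, median 0.05), and none of 35 passed for the difference between tissues. At an unadjusted p under 0.05 by edgeR, 1 of them had an estimate below 0 in aorta, 3 had one above 0 in muscle and 3 had one below 0 for the difference, beside 3.65%, 5.43% and 6.56% of all genes. The leukocyte counterparts of the adhesion molecules, 11 integrin, selectin and ligand genes, had 10 of 11 estimates below 0 in dNdK aorta, with a median of -1.65. Itgam, the alpha chain of Mac-1 that binds Icam1, stood at 5.52 and 4.75 CPM in dNdK aorta and 34.25, 18.7, 19.4 and 8.115 CPM in Rosa26 aorta (log2 fold change -1.98, SE 0.54, unadjusted p = 0.00593 by edgeR). Selplg, the ligand of Selp, stood at 2.49 and 2.56 CPM in dNdK aorta and 5.745, 17.4, 5.44 and 4.48 CPM in Rosa26 aorta (log2 fold change -1.74, SE 0.64, unadjusted p = 0.0261 by edgeR). None of the 11 passed between genotypes in either tissue, with 7 at an unadjusted p under 0.05 by edgeR in aorta, all with estimates below 0 (3.65% of all genes), and 1 in muscle, with an estimate above 0 (5.43% of all genes). Some marker lists also had genes with an unadjusted p under 0.05 by edgeR and an estimate below 0 in aorta. Of the genes tested, these were 4 of 10 macrophage, 4 of 7 B and plasma cell and 3 of 9 T and NK cell genes. Among endothelial genes it was 1 of 9 and among skeletal fibre genes 1 of 6. None of 4 neutrophil, 7 fibroblast, 7 smooth muscle, 7 white adipocyte, 6 brown adipocyte and 5 cardiomyocyte genes did so. The part of these cell types in the values of the module was not tested. Of the leukocyte counterparts, 7 of 10 tested were higher in Rosa26 aorta than in Rosa26 muscle and 1 was lower, beside 31.0% and 27.5% of all genes, led by Itgal, the alpha chain of LFA-1 (log2 fold change 3.53, SE 0.61, edgeR adjusted p = 0.000676), and in dNdK mice none of 11 was higher and 1, Itga4 of VLA-4, was lower (log2 fold change -2.92, SE 0.62, edgeR adjusted p = 0.0286). Itgam is also on the macrophage list and Pecam1 on the endothelial list, so these lists are not independent of the marker sums.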

How the data were processed

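Gene counts of 13 libraries were used, 1 deposited table each. Per the submitters' processing notes, the authors used STAR 2.5.2b, edgeR 3.28.1 and limma 3.42.2 with the builds mm10 and GRCm38.p6. Each deposited table holds raw read counts per gene for either strand and for each strand alone. Reads on either strand were used, since 46.34% to 49.33% fell on the first strand. Lines that name no gene stayed out of library sizes, so that genes held 86.66% to 91.42% of each table. Amplicon libraries of this kind carry no molecular identifiers, so counting intervals and floors cover counting error only, and p-values measure the spread between animals as sampled.

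In R 4.3.3, edgeR 4.0.16 filtered low genes (filterByExpr with a min.count of 10 and a min.total.count of 15), computed TMM factors and ran the quasi-likelihood test. Each comparison used its own libraries, and the difference between tissues used all 13. Benjamini-Hochberg adjustment covered every gene tested, at 0.05. The SE was derived from F and the log2 fold change. TMM factors for printed levels came from all 13 libraries, at 1.195 to 1.469 in aorta and 0.72 to 0.9268 in muscle. Alternatives were DESeq2 1.42.0, other size factors and filters, single strands, blocks and left-out libraries. The pipeline was tested on simulated data. The replicate numbers in the titles do not in general pair animals. The members, lists, roles and tests were chosen with earlier results of these data known. Every member past the threshold was named, in full for up to 12 per comparison by p, with the 5 smallest p-values of each genotype comparison and of the difference. Further members were named after their values were seen. Genes of the panel outside these tables were not analysed here.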

Additional observations from a re-analysis of the deposited data

Results flagged for a closer look

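In groups of 4 libraries, 1 library stood far from the other 3 for 5 of 52 member and group pairs examined, where chance flags about 2.6. In Rosa26 aorta, Tnfaip2 stood at 9.4 CPM in Rosa26 4, against 14.5 to 15.2 CPM in the other 3. Tlr2 stood at 1.28 CPM in the same library, against 2.65 to 2.86 CPM. Il1rn stood at 1.1 CPM in aorta Rosa26 2, against 0.427 to 0.516 CPM, and Traf1 at 2.86 CPM in the same library, against 0.214 to 0.663 CPM. In Rosa26 muscle, Tnfaip2 stood at 340 CPM in Rosa26 4, against 167 to 175 CPM in the other 3. By the animal numbers in the deposited names, aorta Rosa26 4 and muscle Rosa26 4 came from the same animal.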

How the results depend on the processing

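The members followed through the alternatives were those called and those with the smallest p of each genotype comparison and of the difference. None of these changed direction where an alternative gave a value. Between dNdK tissues only Nfkbiz and Tnfaip2 were followed. Other members changed sign there, since those with estimates above 0 went from 10 to 18 with library size alone, and the median of the members ran from -0.26 to 0.53. The members followed kept their side of the threshold in 126 of 126 values for the aorta genotype comparison, 78 of 78 for muscle, 176 of 176 for the difference, 284 of 319 for the Rosa26 tissue contrast and 22 of 28 for the dNdK one. In the genotype comparisons and the difference, that side was the uncalled one, where most simulated 2-fold changes also fell. Of simulated 4-fold changes, 48.5% were called for the aorta genotype comparison, 69.4% for muscle and 5.1% for the difference. Between dNdK tissues 0% of them were called. The number of members called in Rosa26 tissues ran from 12 (second strand counts alone) to 22 (library size alone). Counts over all genes moved more, and the cause was not tested. In aorta dNdK against Rosa26, 1 gene was called, against 13 by DESeq2, 0 by either single strand or with all 13 libraries in 1 fit, 264 when aorta Rosa26 1 and 2 were left out, 30 when the 3 heart-bearing libraries were, and 0 to 1 with 1 library left out. In muscle the number was 0, against 7 by DESeq2 and 0 to 3 with 1 library left out, and without a filter 24 members had estimates above 0. The difference between tissues had 0 calls, against 6 by DESeq2. In dNdK tissues 1801 genes were called, against 3141 by DESeq2, 1145 by first strand counts, 3334 with all 13 libraries and 322 to 3126 with 1 library left out. There the members called higher numbered 4 by DESeq2 and with all 13 libraries, 0 by second strand counts, 5 by library size alone and 0 to 2 with 1 left out, and those called lower 2 with all 13 libraries and 0 to 1 with 1 left out. Members with estimates above 0 there numbered 18 by library size alone and 9 to 17 with 1 left out. Library size alone moved the median of all genes by -0.14 in the aorta genotype comparison, 0.13 in muscle and -0.29 for the difference, with no member called.

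Title numbers did not in general pair the libraries, with correlations of deviations between -0.347 and 0.305. By the animal numbers, Rosa26 4 was the only title number that marked the same animal in both tissues. The other animals that gave both tissues carried different title numbers in each. With title numbers as a replicate block, 163 genes were called in aorta, 3035 in dNdK tissues and 14 members in Rosa26 tissues (Csf1, Birc3 and Nfkbia lost), and no member was called between genotypes. Nfkb1, Il6, Il1a, Il1rn, Socs3 and Traf1 lie near the floor of 3 counts in most libraries, and whether depth or their amplicons limit them was not tested. Having 2 dNdK aorta libraries limits every aorta genotype result.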
